A study of Mus musculus with 6 samples.

Results

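Metallothioneins and the genes that sense and move zinc were followed in differentiating C2C12 cells, an immortalised mouse myoblast line, that were either *Hnrnpa2b1* KO or WT. The set holds 9 genes of 46078 listed by the deposited count table: the metallothioneins *Mt1*, *Mt2* and *Mt3*, the zinc sensor *Mtf1*, the exporters *Slc30a1* and *Slc30a4*, and the importers *Slc39a6*, *Slc39a10* and *Slc39a14*. The genes were found by symbol. They were chosen by their levels in KO against WT in these same libraries, *Mt2* for the size of its rise, so their differences are given below as a description, with no test. The KO was made by CRISPR-Cas9 with a single guide against *Hnrnpa2b1*, which encodes an RNA-binding protein of the nucleus, under puromycin selection. For the control cells of its Western blot the study names a guide of scrambled sequence. Whether the sequenced WT cells had received it is not stated. Independent KO and WT clones were isolated, and the RNA-seq datasets are described as independent. Which clone gave which library is not given in the sources used here. Both genotypes were differentiated for 2 days by serum withdrawal with ITS (insulin, transferrin and selenium) before total RNA was taken, and 3 KO and 3 WT libraries were sequenced after depletion of ribosomal RNA. KO1 to KO3 and WT1 to WT3 below name these libraries.

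Metallothioneins are short, cysteine-rich proteins that bind zinc and copper and buffer the free metal in the cytosol. When zinc rises, MTF-1 (encoded by *Mtf1*) binds metal response elements near the start of *Mt1*, *Mt2* and *Slc30a1* and raises their transcription. Slc30a proteins (ZnT) carry zinc out of the cytosol, into vesicles or out of the cell, and Slc39a proteins (ZIP) carry it in. Metallothionein genes also respond to glucocorticoids and to oxidative stress. In muscle cells, metallothionein RNA is known to be raised in wasting.

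The libraries held 33605258 to 40558740 reads counted on genes, and 14828 genes had enough reads to be tested. Levels are given as CPM, the read count of a gene scaled to library size by TMM, and as TPM, which also corrects for transcript length and is the scale for comparing one gene with another. A floor of 3 reads corresponds to 0.0687 to 0.0914 CPM and covers counting error only. Of the tested genes, 22.7% passed an adjusted p of 0.05 in edgeR's quasi-likelihood test, 12.1% being higher and 10.6% lower in KO. These shares depend on single libraries: the count of genes called, 3361 here, was 933 without WT1 and 4712 without KO1. The median log2 fold change (KO over WT) over all of them was 0.034. In 22.7% of them every KO library lay above every WT library, and in 21.6% every KO library lay below. *Hnrnpa2b1* RNA itself was at 159, 195 and 249 CPM in KO and at 225, 229 and 252 CPM in WT (log2 fold change -0.23, SE 0.18, edgeR adjusted p = 0.381), so its RNA level does not check the labels. The KO libraries were less alike than the WT libraries: the chi-square per degree of freedom between pairs was 154 to 171 in KO and 46.6 to 78.3 in WT. Myogenic identity, not the C2C12 line itself, was checked on 10 myogenic markers, all of which were detected and tested. Of 12 markers of other cell types, 2 had enough reads to be tested, and their summed level was 1.17 to 3.31 TPM over the 6 libraries.

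*Mt2* had the largest difference of the set. Its gene lies at chr8:94172618-94173567 on the plus strand. KO1, KO2 and KO3 held 25.1, 137 and 58.5 CPM, and WT1, WT2 and WT3 held 5.15, 3.54 and 6.87 CPM. The groups did not overlap, and the lowest KO library stood 3.65-fold above the highest WT library. The mean was 73.6 ± 57.6 CPM in KO and 5.19 ± 1.67 CPM in WT (SD, n = 3 each), a log2 fold change of 3.82 (SE 0.61). The KO libraries were themselves uneven: the highest, KO2, held 5.47-fold the level of the lowest, KO1, against 1.94-fold between the highest and lowest WT libraries. The log2 fold change was 3.01 without KO2 and 4.23 without KO1. In TPM, *Mt2* was at 27.5, 162 and 81.2 in KO and at 6.46, 4.48 and 7.77 in WT. The rise of *Mt2* ranked 105th of the 14828 genes tested.

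*Mt1*, which encodes the other metallothionein that most cells make, lies downstream of *Mt2* at chr8:94179089-94180325 on the same strand. It was at 140.5, 308 and 180.3 CPM in KO and at 52.8, 36.2 and 52.4 CPM in WT. The groups again did not overlap, the lowest KO library standing 2.66-fold above the highest WT library, and KO2 was again the highest and KO1 the lowest of the KO libraries. The mean was 209.7 ± 87.8 CPM in KO and 47.2 ± 9.49 CPM in WT (SD, n = 3 each), a log2 fold change of 2.15 (SE 0.31). The rise of *Mt1* ranked 380th of the genes tested. In TPM, *Mt1* held 158, 368 and 256 in KO and 67.5, 47.3 and 61.7 in WT.

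Per length, *Mt1* was the more abundant of the pair in each of the 6 libraries. The composition nonetheless differed between the genotypes. *Mt2* made up 14.8%, 30.5% and 24.1% of the summed *Mt1* and *Mt2* TPM in KO1, KO2 and KO3. In WT1, WT2 and WT3 its share was 8.73%, 8.65% and 11.2%, so the ranges did not overlap. *Mt1* exceeded *Mt2* 2.28- to 5.75-fold in KO and 7.93- to 10.6-fold in WT. The summed level was 186, 529.7 and 337 TPM in KO and 74, 51.8 and 69.4 TPM in WT. By TPM rank within a library, *Mt1* moved from between 913th and 1298th in WT to between 135th and 336th in KO, and *Mt2* from between 5673rd and 7850th to between 315th and 1907th. The longest run of bases shared by the transcripts of *Mt1* and *Mt2* was 20. No other gene shared an identical word of 50 bases with either over 141767 transcripts of the annotation, each read on its own strand. Copies with scattered mismatches, or outside the annotation, would not be found this way. An annotated antisense gene, *Gm45774*, covers 73.5% of the exon bases of *Mt2*. It has no row in the count table used here, and whether the counting used strand is not given in the sources, so reads of *Mt2* and of an antisense RNA cannot be told apart.

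**Figure D1:**
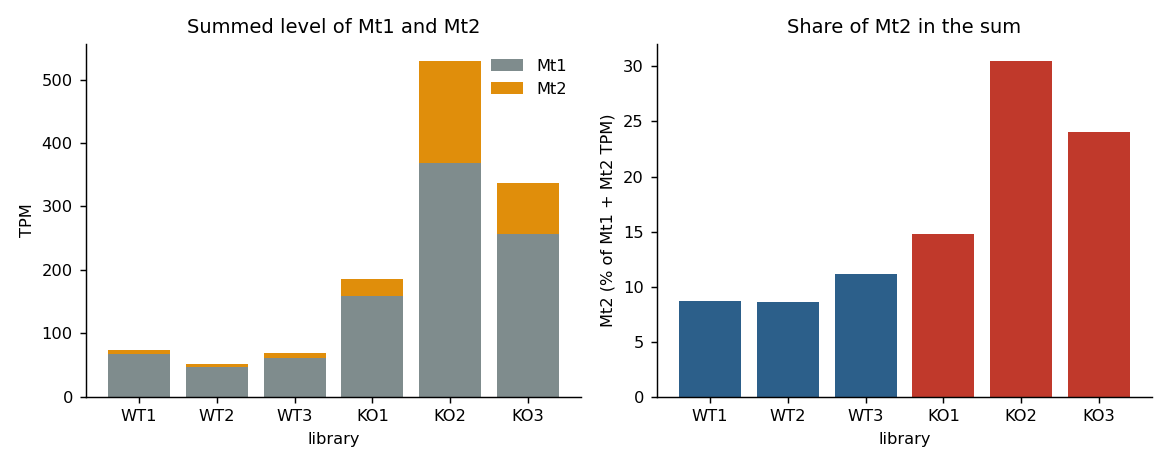
Left, the stacked bars give the TPM of *Mt1* and of *Mt2* in each library; right, the bars give the share of *Mt2* in their sum, as a percentage. Each bar is 1 library. The sum was 51.8 to 74 TPM in WT and 186 to 529.7 TPM in KO, and the share of *Mt2* was highest in KO2 at 30.5%.

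*Mt3*, the metallothionein best known from brain, was all but absent. It had 0 reads in 5 libraries and 1 read in WT3, and was listed at 0 TPM throughout. A count of 0 allows a level of up to 0.0687 to 0.0914 CPM at this depth, so *Mt3* was not tested and no direction can be given. It is the 1 member of the 9 that did not pass the filter on low counts. *Mt4*, the metallothionein of stratified epithelium and no member, had 1 read, in KO2.

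The 250 bases before the RefSeq start of *Mt2* and of *Mt1* are shown because these genes carry the difference and lie in tandem. Capitals mark matches to the core of the metal response element, spelled TGCACNC or TGCGCNC and searched on both strands (so GNGTGCA or GNGCGCA on the strand printed). Both are from RefSeq's promoter table, build GRCm38.p6, plus strand, *Mt2* at chr8:94172368-94172617 and *Mt1* at chr8:94178839-94179088.
Mt2: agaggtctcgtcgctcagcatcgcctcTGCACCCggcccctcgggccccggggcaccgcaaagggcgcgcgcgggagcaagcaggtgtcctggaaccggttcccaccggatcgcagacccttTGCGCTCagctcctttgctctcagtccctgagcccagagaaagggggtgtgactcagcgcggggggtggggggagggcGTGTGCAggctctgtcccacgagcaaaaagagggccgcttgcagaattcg
Mt1: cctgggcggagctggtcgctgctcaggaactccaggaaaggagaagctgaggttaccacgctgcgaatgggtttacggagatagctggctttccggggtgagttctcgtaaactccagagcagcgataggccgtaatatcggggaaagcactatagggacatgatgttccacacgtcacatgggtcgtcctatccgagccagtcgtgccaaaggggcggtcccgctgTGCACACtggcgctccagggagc
In the whole window of 300 bases, which runs on for 50 bases past the start, *Mt2* had 4 matches, at positions -223, -128, -50 and 5 from the start. *Mt1* had 3 matches, at -23, 3 and 21. Among all 32851 RefSeq windows of this length, 25.7% held at least 1 match, 1.97% at least 3 and 0.517% at least 4. The RefSeq start is not the only annotated one. GENCODE places further transcript starts 122 and 152 bases downstream for *Mt1*, and 46 and 242 bases downstream for *Mt2*. In the first exon of the longest form, up to the innermost of these starts, *Mt1* had matches 150, 132, 68 and 54 bases before that start, of which 2 lie beyond the window. *Mt2* had 3 there, all beyond the window, at 184, 165 and 131 bases before its innermost start. Of the other members with a window, *Slc30a4* had 3 matches, *Slc30a1* had 2, *Mt3* had 1, and *Mtf1* and *Slc39a10* had 0. *Slc39a6* and *Slc39a14* had no entry. A match states only that the letters are there.

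*Mtf1* encodes MTF-1, the transcription factor that reads free zinc. Its gene lies at chr4:124802104-124849800. It was at 27.9, 28.5 and 29.8 CPM in KO and at 46.7, 37.4 and 39.7 CPM in WT, so every KO library lay below every WT library. The mean was 28.7 ± 1 CPM in KO and 41.3 ± 4.84 CPM in WT (SD, n = 3 each), a log2 fold change of -0.52 (SE 0.13). The KO libraries stood within 1.07-fold of each other, in contrast to their spread for *Mt1* and *Mt2*. In TPM the groups were also separate, with 3.05, 3.23 and 3.78 in KO and 5.17, 4.26 and 4.09 in WT. A protein-coding gene on the other strand covers 8.09% of the exon bases of *Mtf1*.

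*Slc30a1* encodes ZnT1, the exporter of the plasma membrane, and lies at chr1:191906767-191913247. It held 18.2, 16.5 and 21 CPM in KO and 14.7, 14.4 and 15.3 CPM in WT. The groups did not overlap, though KO2, the library with the most *Mt1* and *Mt2*, was the lowest of the KO libraries here. The log2 fold change was 0.33 (SE 0.15). An antisense gene covers 8.92% of its exon bases. In TPM it was at 2.18, 2.06 and 3.12 in KO and at 1.96, 1.92 and 1.89 in WT.

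*Slc30a4* encodes ZnT4, which loads zinc into endosomes and secretory vesicles, and lies at chr2:122681233-122702663. It was the most abundant transporter of the set per length, at 20.6 ± 2.39 TPM in KO and 19.3 ± 1.68 TPM in WT (SD, n = 3 each). It was at 188, 144.9 and 130.7 CPM in KO and at 142.6, 146 and 135 CPM in WT. The groups overlapped, and the high mean of KO came from KO1. The log2 fold change was 0.13 (SE 0.16), and without KO1 it was -0.039.

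*Slc39a14* encodes ZIP14, an importer of zinc, iron and manganese, and lies at chr14:70303469-70351425. It was at 82.1, 59.1 and 98 CPM in KO and at 53.3, 58.1 and 55.6 CPM in WT. The groups did not overlap in CPM, but the lowest KO library was only 1.02-fold above the highest WT library. In TPM, KO2 at 8.99 fell below WT2 at 9.09, so there the groups overlapped. The log2 fold change was 0.52 (SE 0.18).

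*Slc39a6* encodes ZIP6, an importer of the plasma membrane that pairs with ZIP10, and lies at chr18:24579881-24603817. It was at 74.9, 57.3 and 75.4 CPM in KO and at 52.6, 58.9 and 56 CPM in WT. KO1 and KO3 lay above the WT libraries and KO2 among them. The log2 fold change was 0.31 (SE 0.14).

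*Slc39a10*, which encodes ZIP10 and lies at chr1:46807544-46892852, differed the other way. It was at 21.6, 16.1 and 19.7 CPM in KO and at 22.2, 24.2 and 22.5 CPM in WT. Every KO library lay below every WT library in CPM, but KO3 at 2.87 TPM stood above WT1 and WT3 at 2.84 and 2.72 TPM. The log2 fold change was -0.27 (SE 0.15).

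**Figure D2:**
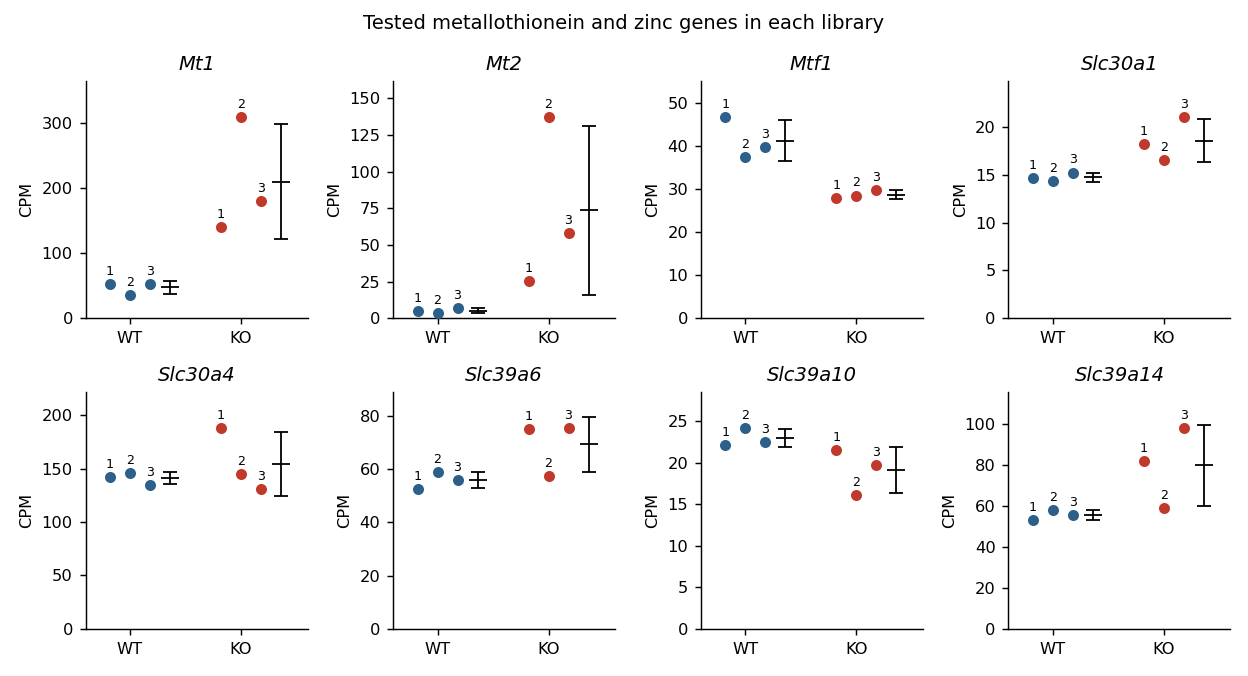
Level in CPM of the 8 tested members; each point is 1 library, numbered by replicate, and the bar beside each group gives its mean ± SD (n = 3). KO lay above WT without overlap for *Mt1*, *Mt2*, *Slc30a1* and *Slc39a14*, and below it for *Mtf1* and *Slc39a10*.

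Over the 8 tested members, the median log2 fold change was 0.32. In 4 of them KO lay above WT without overlap and in 2 below, beside 22.7% and 21.6% of all genes. Since this contrast chose the genes, nothing is read from these counts. The 5 transporters lay between -0.27 and 0.52. KO2, where *Mt1* and *Mt2* were highest, had the lowest CPM of the KO libraries for *Slc30a1*, *Slc39a6*, *Slc39a10* and *Slc39a14*.

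The other genes of both transporter families were set beside the members. Of 19, 12 were tested and 3 passed the threshold (25%, beside 22.7% of all genes), 2 higher and 1 lower, with a median log2 fold change of 0.20. All 3 were importers. *Slc39a8*, encoding ZIP8, the closest relative of ZIP14, fell from 4.6, 3.5 and 4.85 CPM in WT to 0.7, 0.985 and 0.635 CPM in KO (log2 fold change -2.47, SE 0.30, edgeR adjusted p = 0.00278). *Slc39a14*, for ZIP14, stood at 0.52 (SE 0.18) in the same fit. *Slc39a9*, encoding ZIP9 of the Golgi, rose from 14.7, 16.9 and 13.7 CPM in WT to 32.4, 26.8 and 29.9 CPM in KO (log2 fold change 0.98, SE 0.15, edgeR adjusted p = 0.00542). *Slc39a13*, encoding ZIP13, which releases zinc from the early secretory pathway, rose from 47.5, 45.3 and 53 CPM in WT to 85.3, 61 and 79.2 CPM in KO (log2 fold change 0.63, SE 0.15, edgeR adjusted p = 0.0254). The call of *Slc39a13* was lost without KO3, WT1, WT2 or WT3, where its adjusted p reached 0.108. Among the other exporters, 0 of 5 tested passed in edgeR and 0 in DESeq2, and 2 had an unadjusted p under 0.05 in edgeR, beside 5781 of all 14828 genes.

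By mean TPM over the 6 libraries, the transporters were ordered *Slc39a7* (58.9), *Slc39a1* (41.9), *Slc39a13* (22.7), *Slc30a4* (19.9), *Slc30a9* (17.4) and *Slc30a5* (17). The members *Slc39a6* (11) and *Slc39a14* (10.1) came next, and *Slc39a10* (2.69) and *Slc30a1* (2.19) were among the lower ones. *Slc39a13*, *Slc30a4*, *Slc30a9* and *Slc30a5* overlapped in their library values, as did *Slc39a6* and *Slc39a14*. The order differed by genotype: in WT alone *Slc30a4* (19.3) and *Slc30a5* (18.8) stood above *Slc39a13* (18.3), which was at 27.1 in KO. The place of *Slc39a7* is uncertain, since another annotated gene on its strand covers 80.7% of its exon bases and its level by counts was only 6.37 to 8.72 CPM. Neither *Slc39a7* (log2 fold change -0.29, SE 0.17, edgeR adjusted p = 0.248) nor *Slc39a1* (0.29, SE 0.11, adjusted p = 0.0881) passed, and *Slc30a9* (-0.11, SE 0.11, adjusted p = 0.509) and *Slc30a5* (-0.32, SE 0.11, adjusted p = 0.0794) did not either. The summed TPM of the Slc30a family was 57.3 to 71.9 in KO and 58.6 to 68.9 in WT. That of the Slc39a family was 139 to 188 and 142 to 161, so both family totals overlapped while that of *Mt1* and *Mt2* did not. The overlap of the Slc39a total rests on *Slc39a7*, whose level is uncertain. *Slc39a7* was at 50.9, 44.2 and 55.8 TPM in KO and at 72.6, 71.2 and 58.8 TPM in WT. Without it, the Slc39a total of every KO library lay above that of every WT library.

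**Figure D3:**
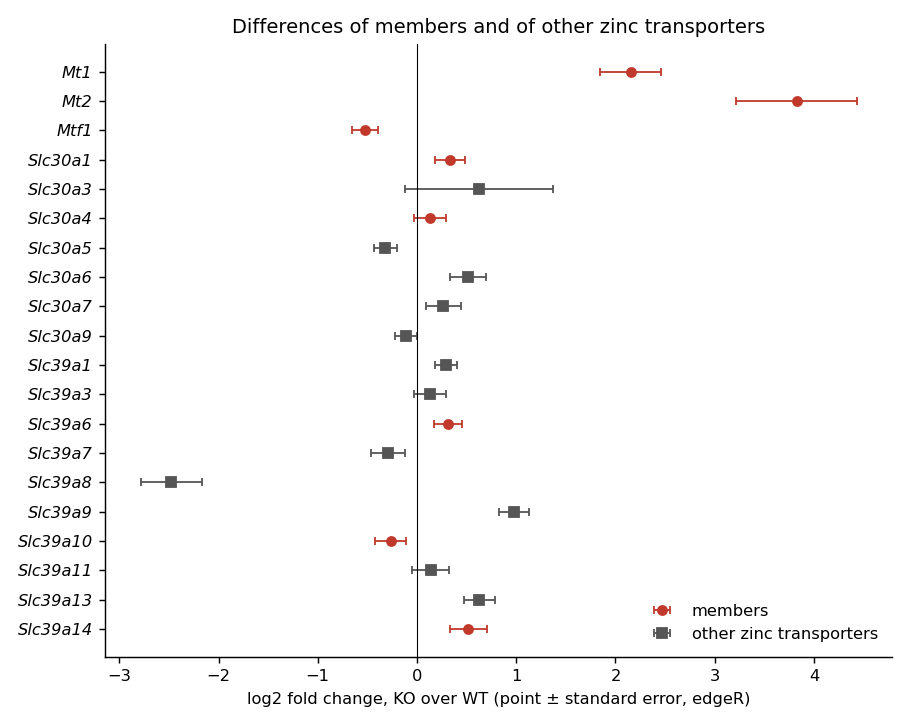
Log2 fold change of KO over WT (point) with its standard error (bar) from the edgeR fit, for the 8 tested members (circles) and the 12 other tested zinc transporters (squares). *Mt2* at 3.82 and *Mt1* at 2.15 lie to the right of every transporter, and *Slc39a8* at -2.47 lies farthest to the left.

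Other genes tied to the regulation of metallothioneins were listed and counted in the same fit. Of 5 other genes described as MTF-1 targets, 1 passed: *Slc40a1*, encoding the iron exporter ferroportin, was lower in KO (log2 fold change -1.44, SE 0.29, edgeR adjusted p = 0.0137), and the median of the 5 was 0.035. Among 9 tested copper genes, 0 were higher and 2 were lower, with a median of -0.34: *Atp7a*, a copper exporter (-0.67, SE 0.13, adjusted p = 0.0116), and *Sco1*, which delivers copper to cytochrome oxidase (-0.61, SE 0.15, adjusted p = 0.0276). Of the glucocorticoid receptor and its targets, 1 of 8 was higher and 2 were lower: *Sgk1* (1.67, SE 0.18, adjusted p = 0.00203) rose, while *Klf9* (-1.43, SE 0.24, adjusted p = 0.00708) and *Per1* (-0.69, SE 0.19, adjusted p = 0.0362) fell. Of 12 NRF2 targets, genes of the response to oxidants, 4 were higher and 0 lower, with a median of 0.23: *Nqo1* (1.89, SE 0.34, adjusted p = 0.00956), *G6pdx* (1.02, SE 0.23, adjusted p = 0.0197), *Srxn1* (0.94, SE 0.18, adjusted p = 0.0103) and *Gclm* (0.92, SE 0.20, adjusted p = 0.016). Of 8 heat shock genes, 2 were higher (*Hsp90aa1* and *Dnajb1*) and 1 was lower (*Hsf1*), with a median of 0.073. Of the genes named here, *Sgk1*, *Klf9*, *Nqo1* and *Hsp90aa1* passed under every alternative tried. *Hsf1* kept its call under 2 of 10 alternatives and also lost it in DESeq2 (adjusted p = 0.0507), without a filter (0.0806) and with the replicate block (0.0777), and *Sco1* also lost it with the block (0.0532). Each of the others, and these, lost it with at least 1 single library left out, at an adjusted p of up to 0.0541 for *Slc40a1*, 0.0634 for *Atp7a*, 0.0817 for *Sco1*, 0.0925 for *G6pdx*, 0.0779 for *Gclm*, 0.0571 for *Srxn1*, 0.078 for *Dnajb1*, 0.136 for *Hsf1* and 0.139 for *Per1*. These shares stand beside the 12.1% of all genes called higher and 10.6% called lower.

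Sarcomere RNA, a sign of differentiation, also differed among the KO libraries. Over 27 sarcomere genes, KO1 had a summed level of 16305 TPM, KO2 of 6549 TPM and KO3 of 6950 TPM, beside 17645, 13050 and 16017 TPM in WT. KO1, with the lowest *Mt1* and *Mt2* of the KO libraries, was within the WT range of sarcomere RNA. Its *Mt1* and *Mt2* lay above every WT library. KO2 and KO3, with less sarcomere RNA, had more of both. Between these 2 the order was not opposite by every measure: the median sarcomere gene stood at -1.42 in KO2 and -1.76 in KO3 (log2 from the WT mean), while *Mt1* and *Mt2* were higher in KO2. Of the sarcomere genes, 5 of 27 passed, all lower in KO (18.5%, beside 10.6% of all genes called lower): *Tcap*, *Actn2*, *Mybpc1*, *Myl1* and *Myom2*. Their list had a median of -0.89. Of 10 myogenic markers, 3 were higher, beside 12.1% of all genes (*Pax7*, *Myod1* and *Cdh15*), and 1 was lower, beside 10.6% (*Myf5*). Of 16 cell cycle genes, *Mcm3* alone was higher in edgeR (6.25%, below the 12.1% of all genes called higher). DESeq2 called 4 of the 16 higher, beside 2128 of 30252 genes. Those 30252 include genes with few reads that the filter of edgeR left out, unlike the 16, so the 2 shares are not like for like. The median log2 fold change of the 16 was 0.44, against 0.034 for all genes, and 12 were positive. The summed TPM of the cell cycle genes was 99.6, 169.8 and 184 in KO and 112, 126 and 121 in WT. The epithelial keratin *Krt14*, 1 of the 12 markers of other cell types, was higher in KO (log2 fold change 2.88, SE 0.74, edgeR adjusted p = 0.0299) at 0.687 to 3.61 CPM, and among the KO libraries it was lowest in KO2, where *Mt1* and *Mt2* were highest. In each library 6 to 9 of these 12 markers were listed at 0 TPM. *Cdh15* and *Krt14* also lost their call with the replicate block (adjusted p = 0.0569 and 0.0675). With single libraries left out the calls of *Myl1*, *Myom2*, *Pax7*, *Myod1*, *Cdh15*, *Myf5* and *Krt14* were lost, at an adjusted p of up to 0.13. The part of differentiation in the metallothionein difference was not tested, and in bulk RNA fewer cells of a type and less RNA per cell cannot be told apart.

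*Mt1*, *Mt2*, *Mt3* and *Mt4* lie together on chromosome 8 over 43122 bases, and the genes around them were examined for a shift of the whole region. Of 14 tested genes within 500 kb, 5 passed and all 5 were higher (35.7%, beside 12.1% of all genes called higher). The median log2 fold change was 0.47, against 0.034 for all genes, and 9 of the 14 had every KO library above every WT library, beside 22.7% of all genes. The 5 were *Gnao1* (1.31, SE 0.19, edgeR adjusted p = 0.00518), a G protein subunit, *Nup93* (0.63, SE 0.12, adjusted p = 0.0107), a nuclear pore protein, *Nudt21* (0.58, SE 0.14, adjusted p = 0.0219), a factor of RNA 3′ end processing, *Arl2bp* (0.55, SE 0.12, adjusted p = 0.016) and *Bbs2* (0.54, SE 0.15, adjusted p = 0.0375), of the primary cilium. The nearest tested gene, *Nup93*, was at 108, 114 and 109 CPM in KO and at 75.8, 63.6 and 73.7 CPM in WT. Each of these 14 lay below both *Mt1* (2.15) and *Mt2* (3.82). Within 1000 kb the highest log2 fold change was 2.84, above *Mt1*. Without WT1 or without WT3, 1 of the neighbours passed (*Gnao1*), and without WT2, 3 passed. *Bbs2* also lost its call with the replicate block (adjusted p = 0.0854). Whether the shift of the neighbours takes part in the metallothionein rise was not tested.

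**Figure D4:**
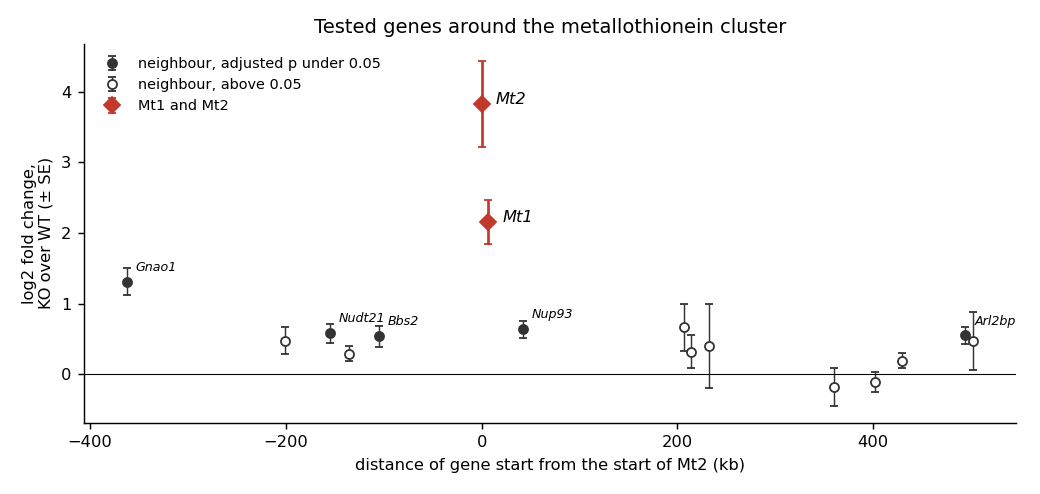
Log2 fold change of KO over WT (± SE) of the 14 tested neighbours (circles, filled where the adjusted p was under 0.05) and of *Mt1* and *Mt2* (diamonds), by the distance in kb from the start of *Mt2*. The neighbours run from -0.18 to 1.31, with a median of 0.47, and both metallothioneins lie above them.

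The profile of *Mt2* over the 6 libraries was compared with that of 5246 named genes at a mean log2 CPM of at least 5, by the root mean square difference of log2 CPM after centring each gene. The closest was *Car3*, encoding carbonic anhydrase 3, a muscle enzyme, at a difference of 0.29. *Car3* was at 352, 1783 and 1306 CPM in KO and at 72.3, 53.4 and 82.1 CPM in WT, so it shared the order KO2, KO3, KO1 with *Mt2*. *Angpt1*, a ligand of the Tie2 receptor (0.72), the cytochrome P450 *Cyp1b1* (0.78), the monooxygenase *Fmo1* (0.90) and the LIM-domain gene *Crip1* (0.92) followed. *Mt1* itself stood at 0.83 from *Mt2*, farther than *Angpt1* and *Cyp1b1* and nearer than *Fmo1* and *Crip1*. For *Mt1*, the closest profile was that of *Fmo1*, at 0.23, which was at 84.7, 218 and 80.7 CPM in KO and at 29.6, 24.2 and 36.9 CPM in WT. These differences are over 6 libraries that share their depth and scaling, and the profiles were searched for likeness, so they are given as a description.

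**Figure D5:**
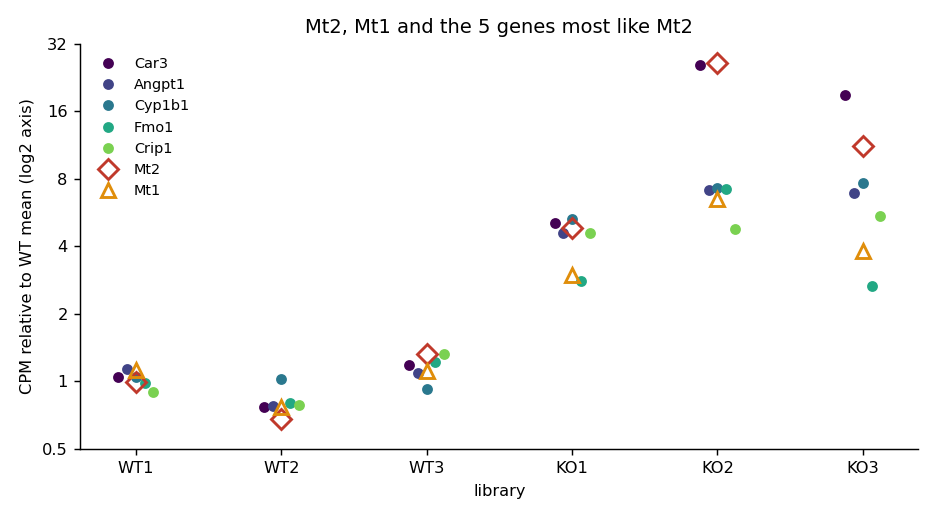
CPM of each gene in each library relative to its own WT mean, on a log2 axis, for *Mt2* (diamonds), *Mt1* (triangles) and the 5 genes closest to *Mt2* (filled circles). *Mt2* and *Car3* nearly coincide in KO1 and KO2, and *Mt1* lies below *Mt2* in each KO library.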

How the data were processed

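RNA of 6 libraries of C2C12 cells (3 KO, 3 WT, differentiated for 2 days) was analysed. The authors deposited one table of counts per gene for all libraries, raw and not normalised, and one table of TPM per gene for each library. Per the labels, reads were processed with FastQC, Trim Galore, STAR, featureCounts, StringTie and Salmon on mm9, while the study's methods name GRCm39. The coordinates, which come from the TPM tables, matched neither statement. Of 45137 genes matched by identifier, 93.3% lay within 1000 bases of their place in GENCODE M21, so coordinates are given as GRCm38. Versions, counting options and strand setting are not given in the sources used here. All 6 sample columns were used, and the TPM files were read by gene identifier.

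Counts were scaled by TMM and fitted with edgeR 4.0.16 (R 4.3.3; quasi-likelihood test, filterByExpr, genotype alone, two-sided, Benjamini-Hochberg over all 14828 tested genes, threshold 0.05). The SE of a log2 fold change is its size divided by the square root of the F statistic. TPM were compared by limma 3.58.1 on log2(TPM + 1) over genes at 1 TPM or more in at least 3 libraries, as a second measure. The fits were tested on simulated counts with the same relative spread for every gene and for both genotypes. The KO libraries here were less alike than the WT libraries, so this checks the running of the fits and not the calls. Alternatives were DESeq2 1.42.0, RLE scaling, no filter, a replicate block, each library left out, other windows and, for TPM, a pseudocount of 0.1 and no filter.

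The members, the gene lists and the rule for naming genes were chosen with earlier results of these data known. Of lists other than the members, genes past the threshold are named (up to 5 a list by size of change), with the 5 transporters of highest mean TPM and the 5 genes closest to *Mt2*. The Dixon test of single libraries was not run, since groups hold 3. The study's methods describe 3 independent clones of each genotype and independent RNA-seq datasets. Each p-value weighs a difference against the spread between these samples. Since no source ties a library to a clone, whether that spread is between clones or between cultures is not known.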

Additional observations from a re-analysis of the deposited data

How the results depend on the processing

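The log2 fold changes of *Mt1* and *Mt2* stayed positive under all 10 alternatives, which, for genes chosen on this contrast, is a description only. They were 1.77 to 2.37 for *Mt1* and 3.01 to 4.23 for *Mt2* with single libraries left out, and their TPM differences ran from 1.77 to 2.38 and from 2.77 to 4.02. *Mtf1* ran from -0.60 to -0.43 and *Slc39a14* from 0.35 to 0.70. The direction of *Slc30a4* turned without KO1, and its log2 fold change ran from -0.039 to 0.24 with single libraries left out. The transporters outside the set called numbered 2 or 3 under each alternative. The count of genes called over the whole table was 3361 and ran from 933 to 4712 with single libraries left out: 933 without WT1, 1288 without WT3, 2088 without KO3 and 2100 without WT2. The count of neighbours of the metallothionein cluster ran from 1 to 5 with single libraries left out (1 without WT1, 1 without WT3, 3 without WT2), and was 10 of 25 within 1000 kb (9 higher, 1 lower). The cause was not tested. Same-numbered libraries did not clearly deviate together (correlations 0.14, -0.12 and 0.004, beside -0.34 to 0.28 between libraries of different numbers). Deviations from a mean of 3 libraries cannot settle whether the numbers pair the samples. With the replicate block, 2520 genes were called. Of 32 called genes named outside the set, 11 passed under every alternative, while 20 lost the call without WT1, 19 without WT3, 11 without KO3 or WT2, 5 with the block and 1 in DESeq2 (*Hsf1*). DESeq2 called 4149 genes, 9 sarcomere genes (5 in edgeR) and 4 cell cycle genes (1 in edgeR). Depth limits *Mt3*, at 1 read in all libraries together. The SE of the log2 fold changes of the transporters in the set was 0.14 to 0.18.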
